A study of Mus musculus with 8 samples.

Results

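The 10 genes described here encode transcription factors of the activator protein 1 (AP-1), activating transcription factor (ATF) and early growth response (EGR) families: Fos, Fosb, Fosl2, Jun, Junb, Jund, Atf3, Egr1, Egr2 and Batf. They were chosen by gene symbol, and all 10 were found, each once, among the 55471 rows of the deposited table. The RNA came from microglia, the macrophages that reside in the brain. They were isolated from hippocampi of C57/Bl6 mice at postnatal day 30. Tissue was taken 4 hours after the mice received the cytokine interleukin-33 (IL-33; 4 libraries, replicates 1 to 4) or phosphate-buffered saline (PBS; 4 libraries, replicates 5 to 8). Replicates 1, 2, 5 and 6 came from females and replicates 3, 4, 7 and 8 from males. No genetic change is named for either group, and the sources used here give neither the route nor the dose of the injection. The sorting gate took CD11b+ cells with low CD45 and without Ly-6C. The labels do not say whether each library came from its own animal, so p-values measure the spread between these libraries, which may be technical.

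Immediate early genes are transcribed within minutes of a stimulus, without new protein synthesis, and most of their messages are short-lived. FOS and JUN proteins pair through leucine zippers to form AP-1, which binds DNA next to signal-dependent factors such as NF-κB at inflammatory enhancers. BATF and ATF3 are small leucine zipper proteins that pair with JUN proteins, while EGR1 and EGR2 bind DNA through zinc fingers. In macrophages and microglia these genes respond to cytokines, to microbial products and also to the handling of cells during isolation.

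Junb and Batf were called higher after IL-33, none of the members was called lower, and 7 other tested members did not pass the test. The estimates of Jund, Fosl2, Egr1 and Egr2 were negative with wide intervals, so that a fall of these is not excluded. Of the 13877 genes tested, 3.06% were called higher and 2.8% lower. The test was limma on log2(normalised count + 1) over all genes with a mean of at least 10, with calls made where the p-value adjusted by Benjamini-Hochberg was under 0.05. The remaining member, Fosb, stayed under that mean. The median log2 fold change of the 9 tested members was 0.23, and that of all tested genes was −0.40. The 10 members together took 0.0820% to 0.118% of all normalised counts in the IL-33 libraries and 0.0255% to 0.0501% in the PBS libraries, ranges that do not overlap. Much of this sum was Junb, at 6647 to 12258 after IL-33, where the summed member counts were 14710 to 20579. The sum therefore does not show a rise of the other members.

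The promoters of the genes that rose, Junb and Batf, are shown with those of their partners Jun and Fos, so that the start regions of the JUN members and the FOS prototype can be read side by side. Each runs from 250 bases before to 50 bases after the RefSeq start site (GRCm38.p6), 5′ to 3′ on the gene's strand. Capitals mark matches on either strand to the motifs described below.
Junb, chr8:84978699-84978998, minus strand: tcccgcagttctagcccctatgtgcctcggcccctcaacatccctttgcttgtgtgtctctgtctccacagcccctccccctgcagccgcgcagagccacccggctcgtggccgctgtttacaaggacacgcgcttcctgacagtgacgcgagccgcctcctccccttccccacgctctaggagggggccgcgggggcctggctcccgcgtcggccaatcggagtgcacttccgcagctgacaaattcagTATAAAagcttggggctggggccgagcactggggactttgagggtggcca
Batf, chr12:85686470-85686769, plus strand: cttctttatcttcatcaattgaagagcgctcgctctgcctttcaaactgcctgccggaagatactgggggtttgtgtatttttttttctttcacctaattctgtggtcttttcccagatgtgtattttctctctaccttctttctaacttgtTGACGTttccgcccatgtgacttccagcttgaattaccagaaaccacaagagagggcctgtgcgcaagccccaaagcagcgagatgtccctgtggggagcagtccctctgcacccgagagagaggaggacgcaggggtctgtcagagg
Jun, chr4:95052173-95052472, minus strand: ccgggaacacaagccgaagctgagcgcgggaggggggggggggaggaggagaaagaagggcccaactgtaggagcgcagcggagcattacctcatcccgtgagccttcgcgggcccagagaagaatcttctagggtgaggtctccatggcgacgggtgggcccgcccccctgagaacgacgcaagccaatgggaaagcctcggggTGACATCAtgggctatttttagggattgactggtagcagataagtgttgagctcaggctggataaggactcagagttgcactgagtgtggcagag
Fos, chr12:85473640-85473939, plus strand: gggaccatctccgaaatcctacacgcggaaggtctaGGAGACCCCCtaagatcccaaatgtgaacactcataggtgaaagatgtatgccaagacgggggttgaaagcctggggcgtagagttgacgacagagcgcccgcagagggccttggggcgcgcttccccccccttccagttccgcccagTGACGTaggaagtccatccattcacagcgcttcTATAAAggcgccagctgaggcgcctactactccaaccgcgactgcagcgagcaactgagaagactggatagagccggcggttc

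The motifs searched were TGACNTCA (the cyclic AMP response element and the related site of the Jun promoter), TGANTCA (the AP-1 site), GCGNGGGCG (EGR), TTCCNGGAA (STAT), TGACGT (the half-site of the cyclic AMP response element), TATAAA (the TATA box), and the CArG box and the NF-κB consensus by name. TGACGT overlaps TGACNTCA where N is G. The list was widened after a first search found no match in Junb and Batf. Of 32851 promoters of the same length, 8.83% held TGACNTCA, 7.81% TGANTCA, 5.55% GCGNGGGCG, 1.15% TTCCNGGAA, 7.51% TGACGT, 13.6% TATAAA, 1.63% a CArG box and 4.51% an NF-κB consensus. Positions are counted from the start site, which is base 1, and bases before it are negative.

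The Junb window held TATAAA at bases 1 to 6. The GENCODE start of Junb lies 30 bases downstream of the RefSeq start. The Batf window held TGACGT at −98 to −93. The Jun window held TGACATCA, a match to TGACNTCA, at −45 to −38. The Fos window held an NF-κB match at −214 to −205, TGACGT at −66 to −61 and TATAAA at −33 to −28. Among members whose promoter is not printed, Fosl2 held a GCGNGGGCG match at −79 to −71 and 2 overlapping NF-κB matches. Fosb held a GCGNGGGCG match at −50 to −42 and an NF-κB match at −188 to −179. Atf3 held the TGACGT half-site at −8 to −3 on the opposite strand, and Jund held no match. The GENCODE start of Jund lies 1210 bases downstream of the RefSeq start, so that the Jund window ends before the gene interval given below. The sequence before the GENCODE start of Jund was not searched. For Atf3 the RefSeq start is at 191183333 and the GENCODE start at 191218039. Of the 5 Egr2 start sites 4 had a CArG box in their window, but 3 of these windows overlap and share the same box, so that there were 2 distinct boxes. Those 3 windows also shared a TGACGT half-site. These are matches of letters in a short window and no evidence of binding. The promoters of 9 of the 10 members were searched.

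Junb encodes a JUN protein that pairs with FOS proteins and with BATF. It lies at chr8:84974484-84978718 on GRCm38 and has 1 exon in the transcript with the longest 3′ untranslated region. In the PBS libraries its normalised counts were 2645, 2761, 1040.0 and 1131 (replicates 5 to 8). In the IL-33 libraries they were 12129, 12258, 6647 and 12055 (replicates 1 to 4). The groups did not overlap: the lowest IL-33 library, replicate 3, was above the highest PBS library. Among all tested genes 6.26% were higher after IL-33 without overlap and 7.41% lower without overlap. Junb and Batf were the members in the first of these classes and no member was in the second. The means were 1894 ± 936 after PBS and 10772 ± 2751 after IL-33 (SD, n = 4 each), a 5.69-fold ratio. Its log2 fold change was 2.61 ± 0.37 (SE; 95% interval 1.83 to 3.39; adjusted p = 1.33e-04, limma).

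Within the PBS group both female libraries of Junb were above both male libraries. The rise was present in each sex, with a log2 fold change of 2.17 in females (adjusted p = 0.0401) and 3.04 in males (adjusted p = 0.00643, both limma). Junb was the only member called in either sex, against 0.973% of all tested genes in females and 1.89% in males. The difference between the sexes did not pass the test (0.87, 95% interval −0.39 to 2.13, adjusted p = 0.783, limma). Over both sexes, limma without a variance trend, which called 1.26% of all genes higher, gave Junb an adjusted p of 0.0622. The calls per sex, with 2 libraries per group, also depended on the setting. Without a variance trend the adjusted p was 0.358 in females and 0.103 in males (limma). Without the filter on low values it was 0.0869 in females and 0.0216 in males (limma). The gene interval of Junb overlaps the peroxiredoxin gene Prdx2 on the opposite strand by 351 bases at the 3′ end of that interval. For Prdx2 the means were 910.4 ± 57.9 after PBS and 1480.4 ± 651 after IL-33. It was not called (log2 fold change 0.59, adjusted p = 0.551, limma). The sources used here do not say whether the counting used strand.

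**Figure D1:**
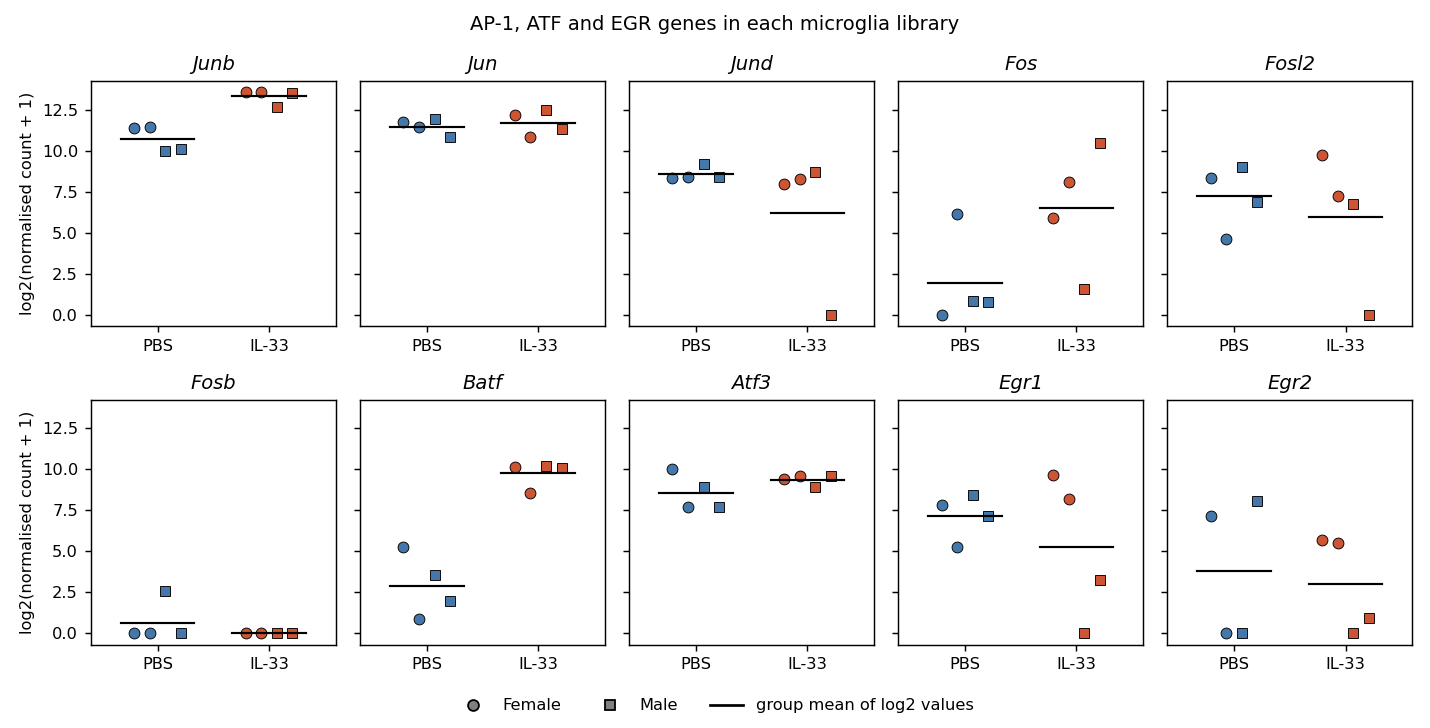
Each point is 1 library, the y axis is log2(normalised count + 1), circles are females, squares males, and lines mark the mean of the log2 values of each group (n = 4). For Junb and Batf all IL-33 libraries lie above all PBS libraries, while Jund, Fosl2, Fos, Egr1 and Egr2 each have a library at 0.

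Batf encodes a leucine zipper factor without a transactivation domain that pairs with JUN proteins and cooperates with interferon regulatory factors. It lies at chr12:85686669-85709087 and has 3 exons in the transcript with the longest 3′ untranslated region. In the PBS libraries it was close to the detection limit, with 44, 1, 13 and 4 reads, or normalised counts of 37.3, 0.852, 10.7 and 2.93. In the IL-33 libraries the normalised counts were 1155, 377, 1203 and 1078. Replicate 2 was the lowest of them.

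The highest PBS value of Batf was far below the lowest IL-33 value, and the groups did not overlap. The means were 12.9 ± 16.8 and 953 ± 388 (SD, n = 4 each), a 73.7-fold ratio that rests on few PBS reads. On the log2 scale the change was 6.84 ± 1.54 (SE; 95% interval 3.61 to 10.08; adjusted p = 0.0102, limma). In females it was 6.29 and in males 7.39, and neither passed the test with 2 libraries per group (adjusted p = 0.252 and 0.11, limma). Without IL-33 replicates 3 and 4, the libraries with the fewest genes, the log2 fold change was 6.45 and the call was lost (adjusted p = 0.131, limma, a fit in which 2.05% of all genes were called higher).

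Jun encodes the prototype of the JUN family (chr4:95049034-95052222). It likewise has 1 exon in the transcript with the longest 3′ untranslated region. The normalised counts of Jun were 3409, 2850.0, 3862 and 1806 after PBS, and 4580.1, 1875, 5859.9 and 2539.7 after IL-33. The groups overlapped: 2 IL-33 libraries were above the PBS range and 2 were inside it. The log2 fold change was 0.23 ± 0.40 (SE) with a 95% interval of −0.61 to 1.07 (adjusted p = 0.768, limma).

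Jund encodes the JUN protein that is usually the least inducible of the family (chr8:70698949-70700616, 1 exon). After PBS it was at 330.2, 337, 592 and 334. After IL-33 it was at 249, 314, 413 and 0. The groups overlapped, and replicate 4 had no reads. The log2 fold change was −2.35 ± 1.58 (SE; 95% interval −5.66 to 0.95; adjusted p = 0.433, limma), and without replicate 4 it was −0.27. The means were 398 ± 129 and 244 ± 176 (SD, n = 4 each).

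The makeup of the JUN family did not overlap between the groups. Junb made up 41.4%, 46.4%, 18.9% and 34.6% of the summed JUN counts in the PBS libraries and 71.5%, 84.8%, 51.4% and 82.6% in the IL-33 libraries. Jun made up 47.9% to 70.3% after PBS and 12.98% to 45.4% after IL-33, and Jund 5.17% to 10.8% and 0% to 3.20%. The shares of a library add up to 100%, so that they are not independent of each other. The summed JUN count was 5275 ± 1385 after PBS and 14730.0 ± 1667 after IL-33 (SD, n = 4 each), ranging from 3270 to 6385 and from 12921 to 16958. The libraries count transcript ends, so that values of different genes need no correction for length, although the yield per transcript can differ between genes.

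**Figure D2:**
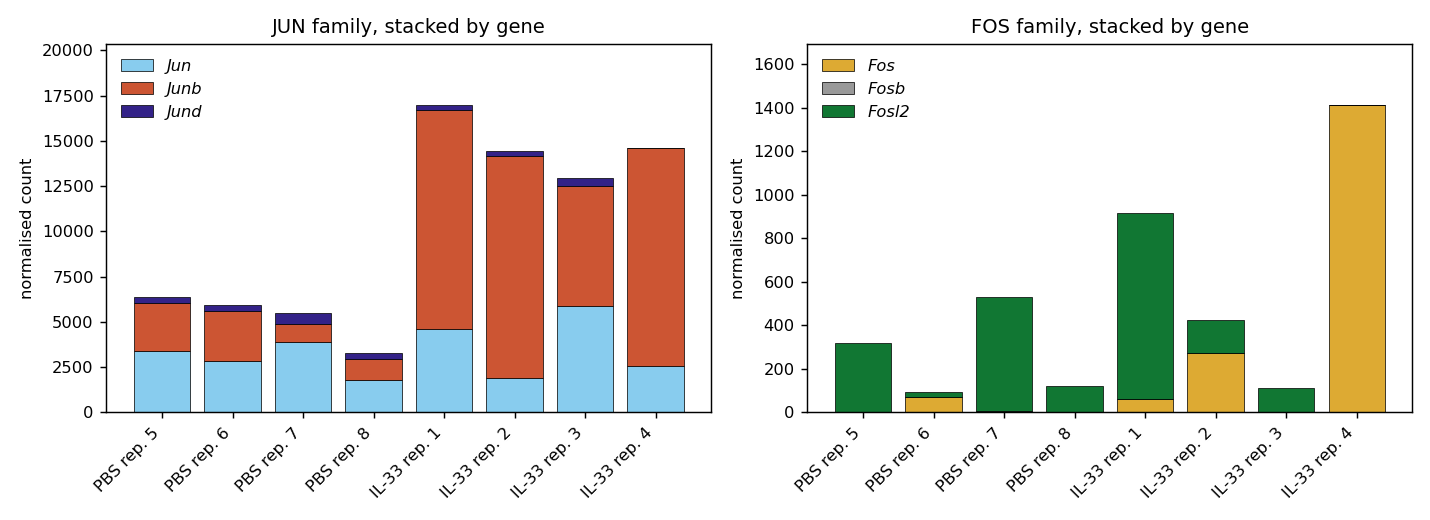
Bars show the normalised counts of the JUN family (left) and the FOS family (right) in each library, stacked by gene, with a y axis from 0. The JUN sum is 12921 or higher in each IL-33 library and 6385 or lower in each PBS library, with Junb as the largest part after IL-33, while the FOS sum varies from 110.5 to 1411 within the IL-33 group alone.

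Fos encodes the prototype partner of JUN proteins (chr12:85473890-85477273). It had 0, 82, 1 and 1 reads in the PBS libraries and 58, 321, 2 and 1477 in the IL-33 libraries. The normalised counts were 0, 69.9, 0.822 and 0.732 after PBS and 60.3, 272, 1.97 and 1411 after IL-33. In the IL-33 group 3 libraries were far above 3 of the PBS libraries, but PBS replicate 6 was higher than IL-33 replicates 1 and 3, so that the groups overlapped. Fos had a log2 fold change of 4.56 ± 2.41 (SE; 95% interval −0.47 to 9.60; adjusted p = 0.315, limma). DESeq2, which called 6.77% of its genes higher, gave Fos a log2 fold change of 4.61 with an adjusted p of 0.045. EdgeR, which called 3.16% higher, gave it an adjusted p of 0.23.

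Fosl2, which encodes the FOS-related protein FRA-2 (chr5:32135801-32157842), was at 319, 23.9, 524 and 119 after PBS. After IL-33 it was at 857, 153, 109 and 0. The highest value and the only 0 were both IL-33 libraries. The log2 fold change was −1.28 ± 1.86 (SE, adjusted p = 0.714, limma), and its sign turned to 0.71 without IL-33 replicate 4 and to 0.19 in edgeR. Fosb, a FOS gene studied mostly in neurons, had 6 reads in PBS replicate 7 and none in the other 7 libraries. A count of 0 allows up to 3 counts, or 2.20 to 3.12 on the normalised scale, as far as counting error alone goes.

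The leading gene of the FOS family differed between libraries. Fosl2 made up 98.9% to 100% of its summed count in PBS replicates 5, 7 and 8, and Fos 74.5% in PBS replicate 6. In the IL-33 libraries Fos made up 6.57%, 63.9%, 1.79% and 100%. The summed FOS count was 94 to 530 after PBS and 110.5 to 1411 after IL-33.

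Messages of immediate early genes often carry AU-rich elements, sequences in the 3′ untranslated region that shorten the life of the RNA. Of 9 members examined, 8 held the pentamer ATTTA in their longest annotated 3′ untranslated region, and 2, Fos and Fosl2, held the nonamer TTATTTATT. Genes with a region of similar length held a median of 1 to 6 pentamers for these 8 members, and 0 for Batf. Holding the pentamer is thus usual at these lengths and no trait of the members. The nonamer was present in 7.66% of 21012 genes with such a region. Among genes with a region of similar length (within a factor of 2) it was in 5.61% for Fos and 17.3% for Fosl2. Batf, with 335 bases, held no ATTTA, and Junb held 2 in 485 bases. The first nonamer of each gene is shown in capitals, from the GENCODE M21 transcripts.
Fos: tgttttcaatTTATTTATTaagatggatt
Fosl2: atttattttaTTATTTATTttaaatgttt

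Atf3 encodes a stress-inducible factor that mostly represses inflammatory genes in macrophages (chr1:191170296-191218039). It was at 1028, 205, 481 and 210.2 after PBS and at 686, 765, 476 and 764 after IL-33. All IL-33 libraries lay within the PBS range. Its log2 fold change was 0.79 ± 0.73 (SE; 95% interval −0.73 to 2.30; adjusted p = 0.58, limma). The coefficient of variation was 80.3% after PBS and 20.3% after IL-33.

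Egr1 encodes a zinc finger factor induced through serum response elements, and lies on chromosome 18. It was at 223, 38.3, 353 and 144 after PBS and at 813, 288, 0 and 8.60 after IL-33. The IL-33 group held the highest value, in a female library, and the 2 lowest, both in male libraries. In females both IL-33 libraries were above both PBS libraries, and in males both were below. The log2 fold change was 2.37 in females and −6.19 in males, and their difference was −8.56 (95% interval −14.92 to −2.20). Its unadjusted p was 0.0136 and it did not pass the adjustment over all genes (adjusted p = 0.783, limma). The IL-33 males, replicates 3 and 4, are also the libraries with the fewest genes, so that sex and detection cannot be told apart here. Over both sexes the log2 fold change was −1.91 ± 1.97 (SE, adjusted p = 0.602, limma), and it turned to 1.73 without those libraries and to 0.56 in edgeR.

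Egr2, whose protein acts in myeloid cells and in myelination (chr10:67535475-67542188), had values of 141, 0, 0 and 273 after PBS. After IL-33 they were 49.9, 44.0, 0 and 0.955. In the PBS group it was either absent from the reads or above 100, with 1 female and 1 male library in each state. The log2 fold change was −0.78 ± 2.499 (SE, adjusted p = 0.883, limma), with a 95% interval of −6.01 to 4.45. No sex difference in the response to IL-33 was called for any of the 9 tested members (0% of all 13877 genes tested), and its smallest adjusted p among members was 0.783 (limma).

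**Figure D3:**
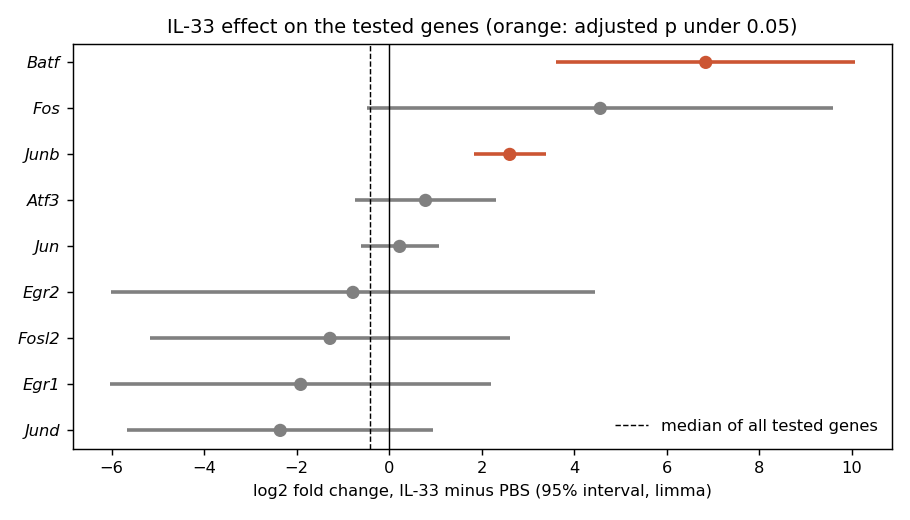
The x axis is the log2 fold change of IL-33 minus PBS with its 95% interval from limma (n = 4 each), and the dashed line is the median of all tested genes at −0.40. The intervals of Junb (1.83 to 3.39) and Batf (3.61 to 10.08) lie above 0, and those of Jun and Atf3 are narrower than those of Fos, Fosl2, Jund, Egr1 and Egr2.

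By mean normalised count the order after PBS was Jun, Junb, Atf3, Jund, Fosl2, Egr1, Egr2, Fos, Batf and Fosb. After IL-33 it was Junb, Jun, Batf, Atf3, Fos, Fosl2, Egr1, Jund, Egr2 and Fosb. Jun and Junb overlapped in range after PBS, whereas every IL-33 value of Junb was above every IL-33 value of Jun. From Batf to Jund the IL-33 ranges of neighbours overlapped.

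The spread within groups divided the members. The residual SD on the log2 scale was 0.62 for Junb, 0.63 for Jun and 0.82 for Atf3. It was 1.46 for Batf and between 2.96 and 3.77 for Jund, Fosl2, Egr1, Fos and Egr2. Genes with a similar mean (within a factor of 2) had median values of 0.43 for Junb, 0.54 for Jun, 1.22 for Atf3 and 1.43 for Batf. These medians were 2.22 for Jund, 2.45 for Fosl2, 2.55 for Egr1, 2.57 for Fos and 3.11 for Egr2, so that they too were larger for the members with wide spread. Of 6258 genes with a mean of 100 to 1000, 25.5% had no reads in at least 1 library, against 4 of the 6 members in that range. IL-33 replicates 4 and 3 lacked 10.7% and 7.97% of these genes, and each PBS library 1.81% to 4.20%. At least 10 reads were found for 9, 9, 6 and 5 of the 10 members in the IL-33 libraries, in replicate order, and for 8, 7, 7 and 7 in the PBS libraries.

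Genes whose values over the 8 libraries were most like those of a member were found by the root mean square distance between centred log2 values, among 3116 genes with a mean of at least 1000. The copper transporter gene Slc31a1 (distance 0.36) and the acyl-CoA synthetase gene Acsl5 (0.40) were closest to Junb. Fam49a (0.45) and the lectin gene Clec4a1 (0.70) were closest to Batf. For Jun they were the ubiquitin-conjugating enzyme gene Ube2d2a (0.18) and the translation termination gene Gspt1 (0.30), and for Fos the nearest, Cd74, was 2.40 away.

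Other genes of these families, and genes related to them, were described by lists. The lists were chosen with earlier results of these data known, so that their counts cannot be read as enrichments. Of all tested genes 3.06% were called higher and 2.8% lower, shares that apply beside every list below. In the lists, genes that rose or fell are those called higher or lower. Of 12 tested further FOS, JUN, BATF and MAF family genes, 2 rose and 1 fell, with a median log2 fold change of 0.32. Nfe2l1 rose from 742 ± 200 to 3179 ± 597 (adjusted p = 0.00446, limma), and Nfe2l2, the regulator of antioxidant genes, from 6714 ± 577 to 12762 ± 2015 (adjusted p = 0.0179, limma). Fosl1, which encodes the other FOS-related protein, had no reads in any library. Fosl1 and the next gene fall outside the naming rule and were picked with their values known. Batf3 measured 271.5 ± 109 after PBS against 1107 ± 783 after IL-33 and did not pass the test (adjusted p = 0.209, limma).

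Among ATF, CREB and CREB coactivator genes, 1 of 17 rose and none fell, with a median of −0.07. The gene that rose was Atf4, the effector of the integrated stress response, from 3222 ± 915 to 8275 ± 1721 (log2 fold change 1.38, adjusted p = 0.00783, limma). C/EBP genes encode leucine zipper factors of myeloid cells. Of 4 tested, 1 rose, 2 fell and 1 was not called, with a median of −0.18. That is 75% called, against 5.85% of all tested genes, in a list chosen with earlier results known. Cebpd rose from 1540.2 ± 956 to 16136 ± 11170 (adjusted p = 5.58e-04, limma). Cebpa fell from 2247 ± 1098 to 247 ± 188 (adjusted p = 0.00576, limma) and Cebpg from 2697 ± 1026 to 717 ± 417 (adjusted p = 0.0316, limma).

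Among genes that work with EGR factors and the serum response factor, 2 of 8 rose and none fell, with a median of 1.06. Both genes that rose encode NAB corepressors, which bind EGR proteins and limit their activity. Nab1 was at 423, 14.5, 53.4 and 102 after PBS and at 1124, 769, 1643 and 1319 after IL-33. Nab2 was at 62.7, 36.6, 209 and 414 after PBS and at 1018, 976.5, 785 and 1633 after IL-33. For both genes every IL-33 library was above every PBS library. The log2 fold changes were 3.91 for Nab1 (adjusted p = 0.0227) and 3.15 for Nab2 (adjusted p = 0.0407, both limma).

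In the list of other immediate early genes 10 of 33 rose and 2 fell, 36.4% against 5.85% of all tested genes, with a median log2 fold change of 1.51. Because the list was chosen with earlier results of these data known, the difference between these shares cannot be read as an enrichment. The genes of largest change included the phosphatase genes Dusp1 (47.8 ± 81.0 to 3309.5 ± 3074, adjusted p = 7.70e-04, limma) and Dusp2, which switch off MAP kinases. Gadd45b, a stress sensor, went from 109 ± 114 to 6615 ± 2284 (adjusted p = 3.30e-05, limma), and Ier3, a survival gene, from 112 ± 99.7 to 5107 ± 1937 (adjusted p = 2.40e-05, limma). Id3 rose as well, and Zfp36l2, which encodes an RNA decay factor, fell from 546 ± 281 to 29.9 ± 55.6 (adjusted p = 0.0477, limma). Ier2 and Nr4a1, chosen after their values were seen, did not pass the test, with 70.4 ± 63.3 and 9.66 ± 12.6 after PBS and 320.3 ± 331 and 48.6 ± 60.8 after IL-33.

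The MAP kinases that feed into AP-1 and EGR genes showed 2 rises and no fall among 22 tested genes, with a median of −0.17. Mapkapk2, a kinase downstream of p38 that stabilises cytokine messages, rose from 1099 ± 324 to 11673 ± 2374 (adjusted p = 9.87e-07, limma). Map3k8, which links NF-κB signalling to the ERK pathway, rose from 187 ± 116 to 1334 ± 493 (adjusted p = 0.0185, limma). Of 10 AP-1 cofactors and modifiers, 2 rose and 1 fell, with a median of −0.40. They were Cops5 (1783 ± 857 to 4267 ± 999), Trib1 and, as the fall, Nfatc1 (2081 ± 808 to 381 ± 173, adjusted p = 0.0157, limma).

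Of 19 tested genes with textbook AP-1 or EGR sites, 7 rose and none fell, with a median log2 fold change of 1.93. Among all tested genes 3.06% were called higher and 2.8% lower. As this list was chosen with earlier results of these data known, its count cannot be read as an enrichment. Those of largest change included Il1b, Tnf, Ccl2, Cd44 and Cd14. Ccl2, a monocyte chemokine, went from 19.4 ± 24.8 to 3564 ± 1397 (adjusted p = 7.55e-05, limma). Many such genes are also known targets of NF-κB.

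In the list of heat shock and dissociation response genes 7 of 14 rose and 1 fell, with a median of 1.72. Among all tested genes 3.06% rose and 2.8% fell, but this list too was chosen with earlier results known. The chemokine genes Ccl3 (1587 ± 699 to 88880.5 ± 36128) and Ccl4 were the largest rises. The chaperone genes Hspa8 (2032 ± 404 to 7188 ± 595, adjusted p = 6.46e-04, limma), Hsp90ab1 and Hspd1 also rose, and Rgs1 fell (adjusted p = 0.0459, limma). Chaperone genes have processed copies elsewhere in the genome, so that their counts are uncertain. Hspb1 had reads in 1 library, Hspa1a in 2 and Hspa1b in none. These inducible chaperone genes were picked with their values known and do not stand for the list. Of its 15 genes 14 reached the mean for testing and 1 was at 0 in all libraries. Other inducible chaperone or co-chaperone genes on it, among them Dnajb1, Hsph1 and Bag3, are not reported here. The part of cell handling in the levels of the members was not tested.

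**Figure D4:**
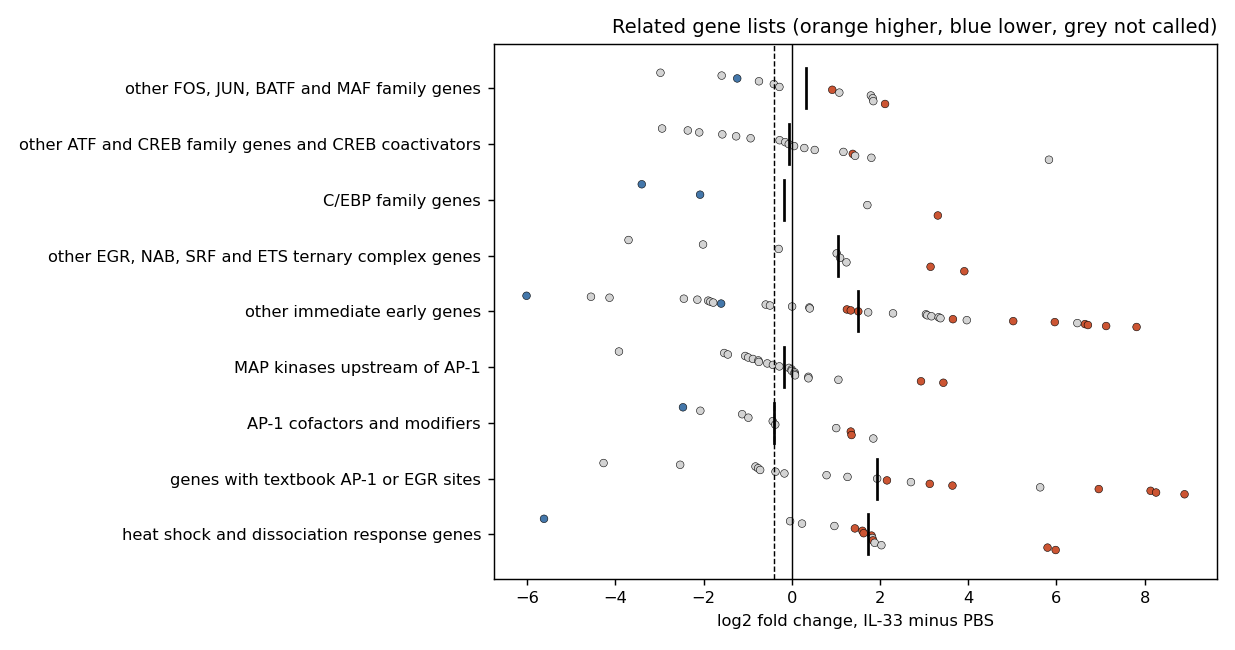
Each point is 1 tested gene on the x axis of log2 fold change (IL-33 minus PBS), grouped by list, with orange for called higher, blue for called lower and grey for not called. Black bars are list medians, from −0.40 for the AP-1 cofactors to 1.93 for genes with textbook AP-1 or EGR sites, and the dashed line is the median of all tested genes.

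Depth ranged from 16827343 to 21483352 reads per library, and genes with at least 10 reads numbered 7958 to 10736 after IL-33 and 10311 to 11902 after PBS. Microglial markers had the highest levels: their summed count was 591317 to 885089 after IL-33 and 713722 to 984175 after PBS, with reads for all 12 in every library. These sums overlap, but 4 of the 12 markers fell (33.3%, against 2.8% of all tested genes) and none rose, with a median log2 fold change of −0.61. P2ry12, a purinergic receptor gene of resting microglia, fell from 71702 ± 19596 to 13030.3 ± 4520.4 (log2 fold change −2.47, adjusted p = 7.01e-07, limma). Sall1, a microglial identity factor gene, fell from 5726 ± 959 to 1287 ± 393 (log2 fold change −2.19, adjusted p = 6.46e-04, limma). Csf1r and Fcrls fell by 0.63 and 0.62 on the log2 scale (adjusted p = 0.0464 and 0.036, limma). P2ry12, Sall1 and Fcrls fall outside the naming rule and were picked with their values known. The other 8 markers were not called, among them Cx3cr1, the most abundant of the list. Cx3cr1 averaged 195362 ± 46104 in the PBS libraries and 197999 ± 51970 in the IL-33 libraries. Its log2 fold change was 0.01 (adjusted p = 0.978, limma). Of 8 monocyte and neutrophil markers 5 were at 0 in all libraries, as were 5 of 6 T and NK cell markers and the mast cell genes Cpa3, Kit and Mcpt4. The list of mast cell and group 2 innate lymphoid cell markers summed to 4.23 to 72.7 after IL-33 and 1294 to 2233 after PBS. Most of the PBS sum was Il7r, at 1177 to 2052, and the rest was mainly Rora, at 117 to 415. Il7r and Rora, the 2 tested genes of this list, fell. Gata3, also on it, had 1 read in PBS replicate 6 and none in the other libraries. The sums therefore do not show that cells of these types were present or lost. Neuronal markers summed to 614 to 2845 after IL-33 and 768 to 1544 after PBS, astrocyte markers to 387 to 1054 and 68.1 to 588, and oligodendrocyte markers to 3106 to 5976 and 3283 to 4753. Endothelial markers summed to 45.8 to 231 after IL-33 and 393 to 947 after PBS, without overlap, and border macrophage markers to 10.9 to 619 and 31.5 to 595. Their part in the levels of the members was not tested. In bulk RNA, fewer cells with a transcript and less of it per cell cannot be told apart.

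**Figure D5:**
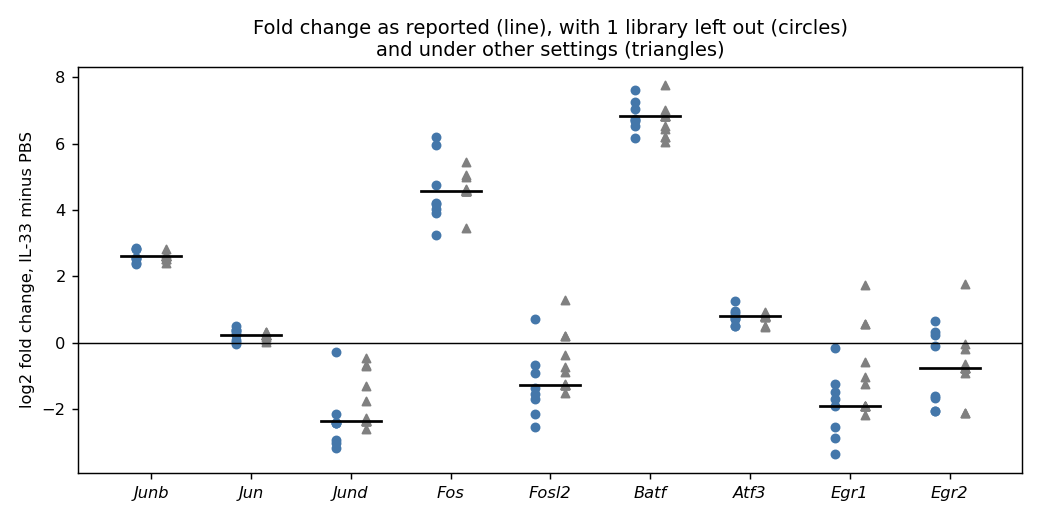
The y axis is the log2 fold change (IL-33 minus PBS) of each tested member, with a line for the reported value, circles for the 8 fits that leave out 1 library and triangles for the other settings. Junb stays between 2.37 and 2.84 and Batf between 6.04 and 7.77, while Fosl2, Egr1 and Egr2 have points on both sides of 0.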

How the data were processed

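RNA from sorted hippocampal microglia was made into QuantSeq 3′ mRNA-Seq FWD libraries (Lexogen), per the labels' protocols. This kit counts the 3′ ends of polyadenylated transcripts. The deposited signal is named normalized counts, per the file headers. Whole reads recovered from it show read counts divided by 1 factor per library: each value, divided by what 1 read is worth, gave a whole number within 0.01 read for 100% of nonzero values. Tools named without roles in the submitters' processing notes are STAR 2.5.4b, HTSeq 0.9.0, FastQC and DESeq2 1.24.0, with the builds mm10 and GRCm38. The sources used here do not give strand use or duplicate removal. Without molecular identifiers reads are not independent molecules, so that floors (3 counts) cover counting error only.

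The main test was limma 3.58.1 (R 4.3.3) with a variance trend on log2(value + 1), two-sided, group as the sole term, over 13877 genes whose mean reached 10. Fold changes are on the log2(value + 1) scale, and those of low genes and of genes with libraries without reads depend on the added 1. P-values were adjusted by Benjamini-Hochberg over all genes tested. Sex effects came from a fit with 4 means, 1 per sex and treatment. The fit was also run on simulated counts with the same dispersion for every gene. These counts were not made to copy the libraries without reads seen here. The run therefore does not show how the fit treats such genes. On the recovered reads edgeR 4.0.16 called 439 genes higher and 318 lower, and DESeq2 1.42.0 was run as well. Other alternatives were pseudocounts of 0.5 and 5, filters, scaling, library weights, sex as a covariate and left-out libraries.

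The members and the 9 gene lists and 9 marker lists were chosen with earlier results of these data known. Named genes were all members, up to 6 called genes of largest change per list (or the 2 most abundant), the 2 most abundant genes of each marker list, and the nearest genes to a member. Some of these are given as counts or sums only, and some are not reported here. A repeated symbol is represented by its row with the highest mean. Gene coordinates are from GENCODE M21 (GRCm38), and promoters from RefSeq.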

Additional observations from a re-analysis of the deposited data

Results flagged for a closer look

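A library was singled out where the gap between it and its nearest neighbour was larger, as a share of its group's range, than the 95% critical value of Dixon's test. This was so in 5 of 19 groups of 4 values. Chance gives about 1 in 20 for normally distributed values only. The gaps were taken on normalised counts that include zeros, so that the number cannot be set against chance. Fos in PBS replicate 6 was at 69.9, far above the other PBS libraries. Fosb in PBS replicate 7 was at 4.93, the only library with reads, where the gap equals the whole range by construction. Jund in PBS replicate 7 was at 592, above the other 3 at 330.2 to 337. Junb in IL-33 replicate 3 was at 6647, below the other IL-33 libraries at 12055 to 12258. Batf in IL-33 replicate 2 was at 377, below the others at 1078 to 1203.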

How the results depend on the processing

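The number of members called higher, 2 as reported, was 1 without a variance trend (Junb lost), 1 with IL-33 replicates 3 and 4 left out (Batf lost) and 1 at an adjusted p under 0.01 (Batf lost). It was 2 in each of the 8 fits that left out 1 library and 3 in DESeq2, with Fos added. None was called lower under any setting run, and the sex difference was called for none. Members that were not called turned sign under some settings. Fosl2 had a log2 fold change of 0.19 in edgeR, 0.18 in DESeq2 and 1.28 with IL-33 replicates 3 and 4 left out. Egr1 had 0.56, 0.55 and 1.73 under the same settings, and Egr2 1.77 without those libraries. Leaving out 1 library gave −2.54 to 0.71 for Fosl2, −0.038 to 0.51 for Jun and −2.05 to 0.65 for Egr2. Fosb could be tested without a filter alone (adjusted p = 0.593, limma). The cause of these differences was not tested. No paired analysis was possible because the groups share no replicate numbers. With 4 libraries per group, the 95% intervals of Batf, Fos, Fosl2, Jund, Egr1 and Egr2 span more than 6 log2 units. All of these but Batf had at least 1 library without reads. Over all genes, 424 were called higher and 388 lower as reported, 175 and 238 without a variance trend, 790 and 877 in DESeq2, 297 and 204 without a filter, and 285 and 473 with IL-33 replicates 3 and 4 left out. The fits that left out 1 library called 305 to 432 higher and 153 to 531 lower. The median log2 fold change of all genes, −0.40 as reported, was −0.12 after quantile normalization and −0.08 in edgeR.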
